A study of Arabidopsis thaliana with 18 samples.

Results

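The 6 arrays described here compare Arabidopsis thaliana seedlings of the wild type Columbia (Col) 52 h after a heat acclimation (Col 52h, 3 arrays) with untreated Col seedlings (Col contr, 3 arrays), out of 18 arrays in the series. The acclimation was given to seedlings aged 4 d and ran 1 h at 37 °C, 1.5 h at 23 °C and 45 min at 44 °C, begun 6 h after dawn. The untreated seedlings were taken at the 4 h time point, and harvests were placed at a matching time of day, so the Col 52h seedlings were about 2 days older than the Col contr seedlings. Age and heat treatment therefore cannot be told apart in any difference given below. The other arrays were Col 4 h after acclimation (Col 4h, 3 arrays) and the same conditions in the bru1 mutant (9 arrays), whose allele the labels do not give; BRU1, also called TONSOKU, is a nuclear protein with a role in genome maintenance. All groups grew on a medium with 1% glucose, in 16 h of light and 8 h of dark.

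A plant that survives a first heat treatment stays better able to survive a second one for several days, a state called heat stress memory or maintenance of acquired thermotolerance. Heat shock factors switch on chaperone genes within minutes, and most of these genes return toward their starting level within hours, while a smaller set of memory genes stays active for days. Among the known memory genes are several small heat shock proteins, which bind unfolding proteins and keep them from clumping, and HSA32, a heat-induced protein needed for long-term thermotolerance. The comparison at 52 h asks which transcripts still stood away from the untreated level after the acute response had passed.

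The values are log2 expression per probe set after RMA, so a difference of 1 is a 2-fold change. The array medians over the whole series lay between 6.49 and 6.55, and each array correlated with its group at 0.986 to 0.996 on average. The 3 Col 52h arrays were less alike than the 3 Col contr arrays: the correlations between pairs were 0.994, 0.990 and 0.982 in Col 52h, against 0.996, 0.996 and 0.994 in Col contr. Of the 22746 probe sets tested, 854 differed by 2-fold or more between Col 52h arrays, and 66 between Col contr arrays. Replicate 3 lay farthest from the controls for 132 of 187 genes called at least 2-fold higher and for 118 of 148 called at least 2-fold lower, and replicate 2 lay nearest for 120 and 111 of them. Counts of the main gene groups are therefore also given without Col 52h replicate 3. The control probe sets for 25S ribosomal RNA were also higher in Col 52h, at 12.27 ± 0.19, than in Col contr, at 11.50 ± 0.20 (SD, n = 3 each); the exact two-sided permutation p of 0.1 is the smallest that 3 against 3 arrays can give. The difference between 3' and 5' control probe sets, a sign of RNA quality, was also higher without overlap for the older-design probe sets: for actin it was 2.87 to 3.42 in Col 52h, against 2.66 to 2.77 in Col contr, and for GAPDH 0.438 to 0.545 in Col 52h, against 0.352 to 0.435 in Col contr, each with the same exact permutation p of 0.1. For the newer probe sets the exact permutation p was 0.6 for actin and 0.2 for GAPDH. The part of these differences in the results was not tested.

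At 52 h, 1577 probe sets (6.93% of those tested) were called higher and 1783 (7.84%) lower at a Benjamini-Hochberg adjusted p under 0.05 in limma. A change of at least 2-fold was called for 366 probe sets upward (1.61%) and for 283 downward (1.24%). Without Col 52h replicate 3 the same counts were 317 and 203. The 3 Col 52h arrays all lay above the 3 Col contr arrays for 13.3% of probe sets and all below them for 15.3%, so a lack of overlap alone singles out no gene. Over 13355 genes with a probe set of their own, 889 (6.66%) rose and 918 (6.87%) fell, and the median change was -0.01. Gene names were given for 189 of the 366 probe sets called at least 2-fold higher and for 148 of the 283 called at least 2-fold lower. The others stay unnamed here, and they include the changes of 6.65 and -4.04 that were the largest upward and downward. In whole seedlings, fewer cells of a type and less RNA per cell cannot be told apart.

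Among named genes, the small heat shock proteins HSP17.6C and HSP22 had the largest rises. Of 12 listed memory genes 4 were measured (HSP17.6C, HSP22, HSP15.7 and HSA32), and all 4 rose, with a median change of 4.67. Of 10 measured small heat shock protein genes 7 rose and none fell, with a median change of 2.62. The lists overlap, since HSP17.6C, HSP22 and HSP15.7 are among these 7 too. Without Col 52h replicate 3 the counts were 4 and 7. The cytosolic class I protein HSP17.6C (AT1G53540) had 10.02, 9.23 and 11.27 in the Col 52h arrays, against 4.19, 4.27 and 4.57 in the Col contr arrays. The groups were far apart, and since the mean of the Col contr values lies below 4.39, the level above which signals are read as measured here, the rise was at least 5.78 on the log2 scale (adjusted p = 1.64e-07). HSP22 (ATHSP22.0), a protein of the endomembrane system, had 9.50, 9.77 and 10.84 in Col 52h, against 4.48, 4.90 and 4.97 in Col contr, a change of 5.25 ± 0.28 (SE). HSP26.5 (AT1G52560) had 7.73, 7.32 and 9.45 in Col 52h, against 4.10, 4.14 and 3.87 in Col contr, with replicate 3 well above the other two. Its rise was at least 3.77.

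At 4 h, 36.4% of all probe sets differed from the controls in either direction, and 31.8% differed between Col 52h and Col 4h. The members of the small heat shock protein family differed in how much of the 4 h level remained. HSP15.7 (AT5G37670), found in peroxisomes, had 10.07, 9.83 and 10.71 in Col 52h, against 6.14, 6.48 and 5.70 in Col contr. Its change was 4.09 ± 0.37 at 52 h and 4.28 at 4 h, and the difference of Col 52h minus Col 4h, -0.19, did not pass the test (adjusted p = 0.757). HSP17.6C and HSP22, in contrast, had stood at least 9.15 and 8.08 above the controls at 4 h, and each was lower in Col 52h than in Col 4h (adjusted p = 6.94e-06 and 5.69e-07). HSP17.6B (AT2G29500) had 9.41, 8.98 and 10.56 in Col 52h, against 6.15, 6.23 and 6.01 in Col contr, a change of 3.52 at 52 h beside 6.80 at 4 h. Smaller rises without overlap of the groups were seen for the class III protein HSP17.4 (AT1G54050), by 1.72 ± 0.23, and for HSP18.5 (AT2G19310), by 1.01 ± 0.16. The remaining members did not pass the test: mitochondrial HSP23.5 (AT5G51440) with 1.17 (adjusted p = 0.0555), AT5G47600 with 0.44 and HSP15.4 (AT4G21870) with 0.09. HSP23.5 had 7.89, 7.14 and 8.94 in Col 52h, against 6.86, 6.84 and 6.76 in Col contr, so its arrays did not overlap but were widely spread.

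**Figure D1:**
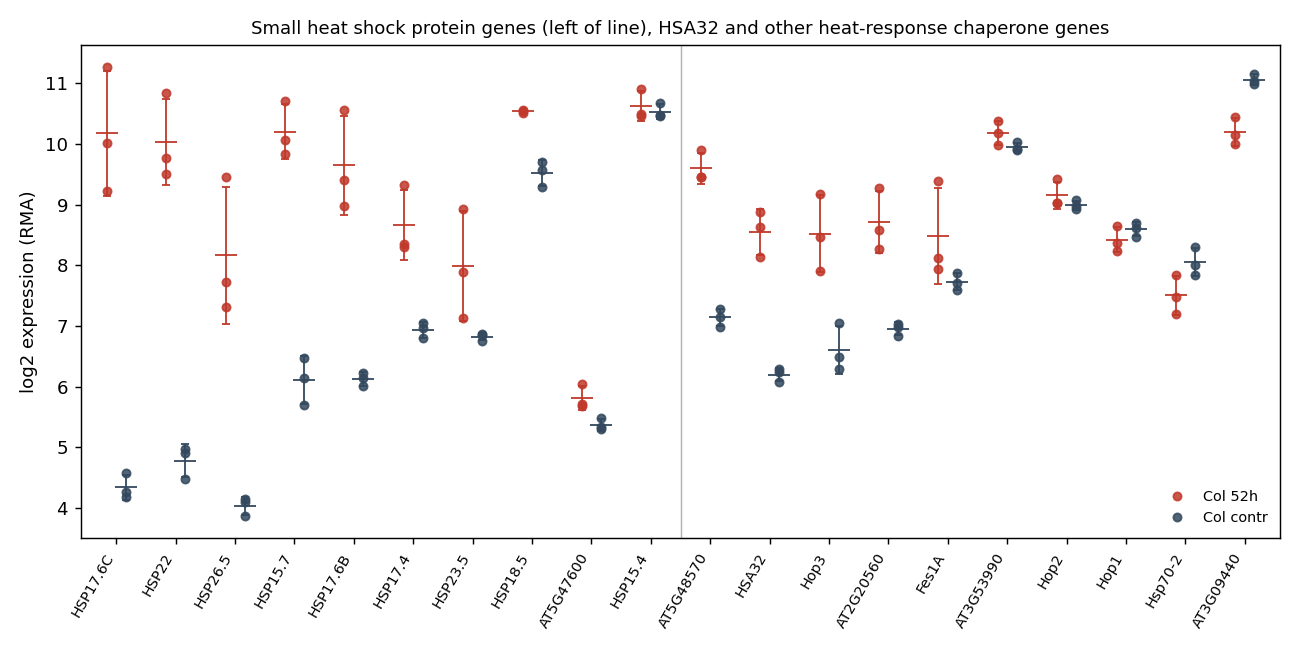
Log2 expression of each heat protein gene in the 3 Col 52h arrays (red, left of each pair) and the 3 Col contr arrays (dark, right); points are arrays, bars are mean and SD. HSP17.6C, HSP22 and HSP26.5 lie below 5 in every Col contr array and above 7 in every Col 52h array, while HSP15.4, Hop1 and Hop2 overlap.

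HSA32 had 8.63, 8.14 and 8.88 in Col 52h, against 6.23, 6.29 and 6.07 in Col contr, a change of 2.35 ± 0.23 (adjusted p = 2.99e-06) beside 4.92 at 4 h. Larger chaperones and their partners were sorted into a list after values had been seen, and 3 of its 9 measured genes rose, none fell, with a median of 0.23. The peptidyl-prolyl isomerase ROF2 (AT5G48570), which acts with heat shock proteins, had 9.45, 9.46 and 9.90 in Col 52h, against 7.15, 7.28 and 6.99 in Col contr, a change of 2.46 ± 0.16. Hop3, a co-chaperone that links Hsp70 and Hsp90, had 8.47, 7.91 and 9.18 in Col 52h, against 6.49, 7.05 and 6.28 in Col contr, a change of 1.91 ± 0.26. The J-domain protein AT2G20560 was higher by 1.76 ± 0.35. The related genes Hop1 and Hop2 had changes of -0.18 and 0.16 and did not pass the test. Neither did the Hsp70 genes Hsp70-2 (-0.55, adjusted p = 0.216) and AT3G09440 (-0.87, adjusted p = 0.0614). With only the 6 Col 52h and Col contr arrays, AT3G09440 passed as lower (limma adjusted p = 0.0052). Fes1A, an Hsp70 partner, had 0.76 (adjusted p = 0.222).

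Among the 15 genes with the largest rises, 5 were small heat shock protein genes, and none of the other 10 belongs to the heat protein lists. The defensin-like gene PDF1.4 had 9.61, 8.98 and 10.78 in Col 52h, against 4.82, 4.96 and 5.76 in Col contr, a change of 4.61 ± 0.42. At 4 h it stood at 0.60 (adjusted p = 0.294), and it was higher in Col 52h than in Col 4h by 4.01. Of 10 plant defensins measured (a list added after values were seen), PDF1.4 rose and PDF2.5 fell, by 0.82, and the median was 0.12. Over all genes, 6.66% rose and 6.87% fell. The call of PDF2.5 was lost without Col contr replicate 2 or 3, or without Col 52h replicate 1 or 3. AT2G04050, a transporter of the MATE family, which exports organic compounds, had 9.46, 9.20 and 10.53 in Col 52h, against 5.39, 5.18 and 5.70 in Col contr, a change of 4.30 ± 0.51, with -0.17 at 4 h. AT1G09500, similar to alcohol dehydrogenases, had 9.61, 9.34 and 9.94 in Col 52h, against 6.61, 6.76 and 6.16 in Col contr, a change of 3.12 ± 0.31, with -0.51 at 4 h. These 3 genes thus stood high at 52 h without a rise at 4 h.

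The AAA-type ATPase AT2G18190 had 7.82, 6.74 and 8.57 in Col 52h, against 4.52, 4.51 and 4.68 in Col contr, a change of 3.14 ± 0.32, with 0.07 at 4 h. AT1G10585, a bHLH transcription factor, was at least 2.12 higher at 52 h, and its means in Col 4h and Col contr both lay below the level read as measured. The next genes were high at both times. The GTPase AT1G72660 changed by 2.97 ± 0.39 at 52 h and by 4.15 at 4 h, AT4G23493 by 2.96 ± 0.27 and 2.12, and the EF-hand calcium-binding protein AT1G21550 by 2.78 ± 0.36 and 1.51. In AT1G21550, the 3 Col 52h arrays were close together, at 7.31, 7.56 and 7.09, against 4.37, 4.49 and 4.77 in Col contr. Without any 1 array, none of the 30 genes with the largest rises and falls lost its call.

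**Figure D2:**
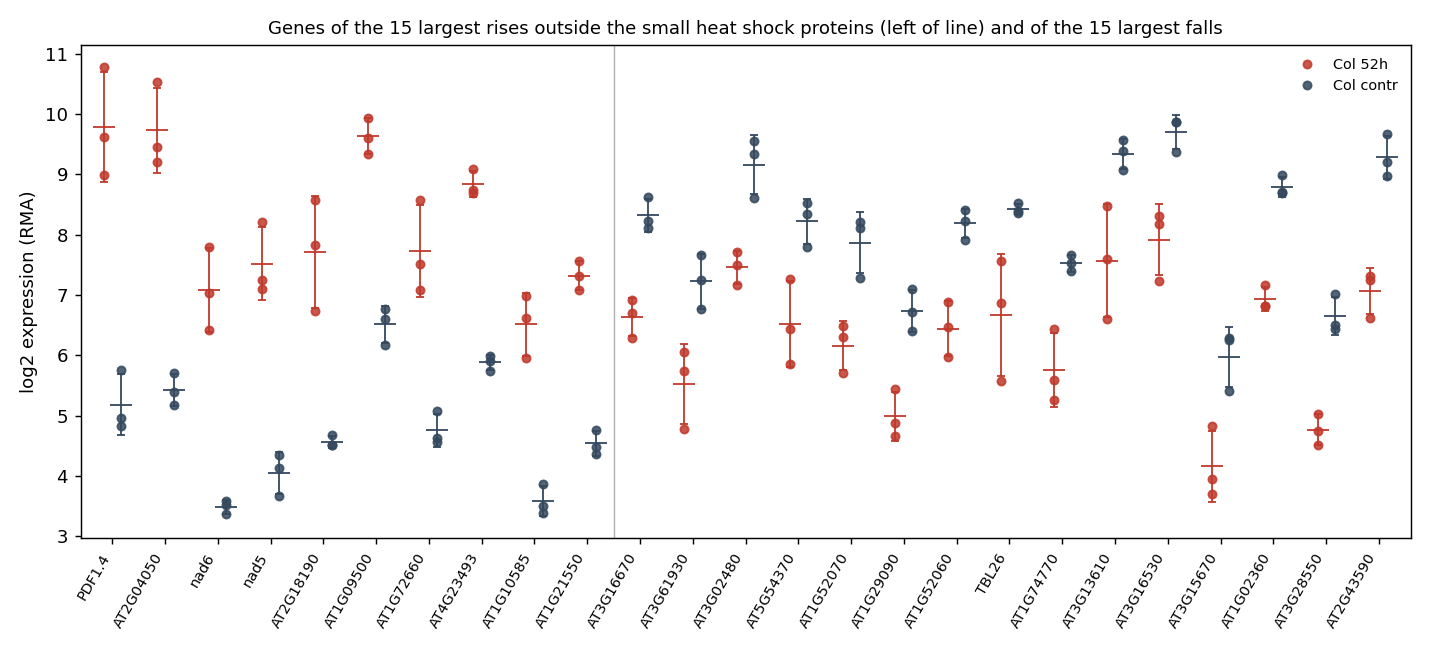
Log2 expression by array for the genes of the 15 largest rises that are not small heat shock proteins (left of the line) and for the 15 largest falls (right), in Col 52h (red, left of each pair) and Col contr (dark, right); bars are mean and SD of 3 arrays. These genes were chosen for having no overlap between the groups. The Col 52h values are the more spread for PDF1.4, AT2G18190 and TBL26.

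The remaining rises among the first 15 were nad6 and nad5, subunits of respiratory complex I that are encoded in the mitochondrial genome. Of 16 mitochondrial genome genes with a probe set of their own, 9 rose and none fell, 8 of them by at least 2-fold. The median was 0.91, and without Col 52h replicate 3, 8 rose. This list, matched by gene symbol, and the plastid list below are added lists. Cytochrome oxidase subunit gene cox1 had 8.74, 8.60 and 8.95 in Col 52h, against 5.96, 6.02 and 6.08 in Col contr, a change of 2.75 ± 0.20, and cox2 changed by 2.49 ± 0.23. The nad6 arrays read 7.04, 6.42 and 7.80 in Col 52h, against 3.59, 3.36 and 3.52 in Col contr, a rise of at least 2.69. All 3 stood higher still at 4 h, cox1 by 6.07 and cox2 by 4.90 over the controls, and nad6 by at least 7.25. Near-identical copies of mitochondrial sequence lie on chromosome 2 of this species, so which copy gave these signals is uncertain. The 25S ribosomal RNA control, which was also higher in Col 52h, may be set beside these values; its part in them was not tested. The plastid genome did not move this way: of 69 genes none rose and 4 fell. The median was -0.13, and 6.87% of all genes fell.

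Nuclear genes known to respond to impaired mitochondria were listed after their values had been seen. Of 7 measured, 5 rose and none fell, with a median of 1.09; without Col 52h replicate 3, 4 rose. The outer membrane stress protein UPOX (AT2G21640) had 8.66, 8.28 and 9.61 in Col 52h, against 6.61, 6.90 and 6.91 in Col contr, a change of 2.05 ± 0.33 beside 1.33 at 4 h. AT2G41730, for which no role is given here, had 8.94, 8.71 and 9.92 in Col 52h, against 7.35, 7.44 and 7.56 in Col contr, a change of 1.74 ± 0.36, whereas its change at 4 h was -0.70. AT2G32020, a GNAT-family acetyltransferase, was higher by 1.09 ± 0.23 at 52 h beside -0.51 at 4 h. AT2G04050, described above, is on this list as well. Across the MATE family (an added list), 5 of 38 genes rose and 7 fell, beside 6.66% and 6.87% of all genes. The median was -0.01, so the family had no common direction. Within it AT1G66760 had 8.64, 8.11 and 9.11 in Col 52h, against 6.67, 6.80 and 6.75 in Col contr, a change of 1.88 ± 0.30, while AT5G44050 changed by -1.15 and AT1G11670 by -0.95.

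CC-type glutaredoxins are small plant proteins that act on disulfides and take part in nitrogen, hormone and pathogen responses. Of 16 measured (a list added after values were seen), 8 rose, 7 of them by at least 2-fold, and 2 fell; the median change was 0.65 against -0.01 over all genes, and without Col 52h replicate 3 the count was again 8. AT3G62950 had 6.41, 6.02 and 5.60 in Col 52h, against 3.57, 3.66 and 3.63 in Col contr, a rise of at least 1.62. AT3G62930 had 7.43, 7.22 and 8.09 in Col 52h, against 5.86, 6.16 and 6.07 in Col contr, a change of 1.55 ± 0.27. At 4 h, AT3G62950 lay below the level read as measured, as in Col contr, and AT3G62930 had a change of -0.04. Of the genes that fell, AT1G06830 had a change of -1.25 that did not pass without Col contr replicate 1, Col contr replicate 3 or Col 52h replicate 3, and AT2G47880 had -0.70, which did not pass without Col 52h replicate 1. The neighbours AT4G15660, AT4G15680, AT4G15690 and AT4G15700 changed by 1.21, 1.22, 1.21 and 0.96. For these 4 the change at 4 h was 0.78 to 1.63, and since they are similar in sequence their probe sets may share signal.

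Genes of energy starvation and of branched-chain amino acid breakdown formed another added list, and 8 of its 15 measured members rose, 6 of them by at least 2-fold, with none lower and a median of 0.63. Without Col 52h replicate 3 the count was 7. Methionine gamma-lyase (MGL), which breaks down methionine, had 7.96, 7.34 and 8.08 in Col 52h, against 5.79, 5.93 and 5.60 in Col contr, a change of 2.02 ± 0.24. Pyruvate orthophosphate dikinase (PPDK) had 8.97, 8.86 and 9.57 in Col 52h, against 6.95, 7.18 and 7.72 in Col contr, a change of 1.85 ± 0.18. At 4 h PPDK stood at -0.22 and MGL at 1.53. The leucine breakdown genes IVD, MCCA and MCCB changed by 1.54 ± 0.23, 1.49 ± 0.27 and 0.72 ± 0.14, beside 1.90, 1.34 and 0.95 at 4 h. The sugar-starvation marker AT3G15450, already abundant in the controls, had 12.41, 11.97 and 12.47 in Col 52h, against 10.88, 10.90 and 11.27 in Col contr.

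Late embryogenesis abundant (LEA) proteins protect cells that lose water, and the cold-regulated COR15 proteins belong to them. Of 37 measured LEA genes, from a list added after values were seen, 5 rose and 10 fell, with a median of -0.07. The count that fell was 7 without Col 52h replicate 3, 6 without Col contr replicate 1 and 5 without Col contr replicate 3. COR15A had 7.33, 8.40 and 6.98 in Col 52h, against 5.65, 5.67 and 5.78 in Col contr, a change of 1.87 ± 0.33 beside 0.20 at 4 h. COR15B had 7.80, 8.05 and 7.90 in Col 52h, against 5.75, 6.71 and 6.12 in Col contr, a change of 1.72 ± 0.24. The family thus held genes of both directions: AT3G15670 was lower by at least 1.58 at 52 h, AT3G02480 changed by -1.70 ± 0.24 and AT5G60530 by -1.32 ± 0.21. HIS1-3, a linker histone known to be induced by drought, had 6.73, 6.48 and 7.66 in Col 52h, against 4.83, 5.15 and 5.22 in Col contr, a change of 1.89 ± 0.33.

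**Figure D3:**
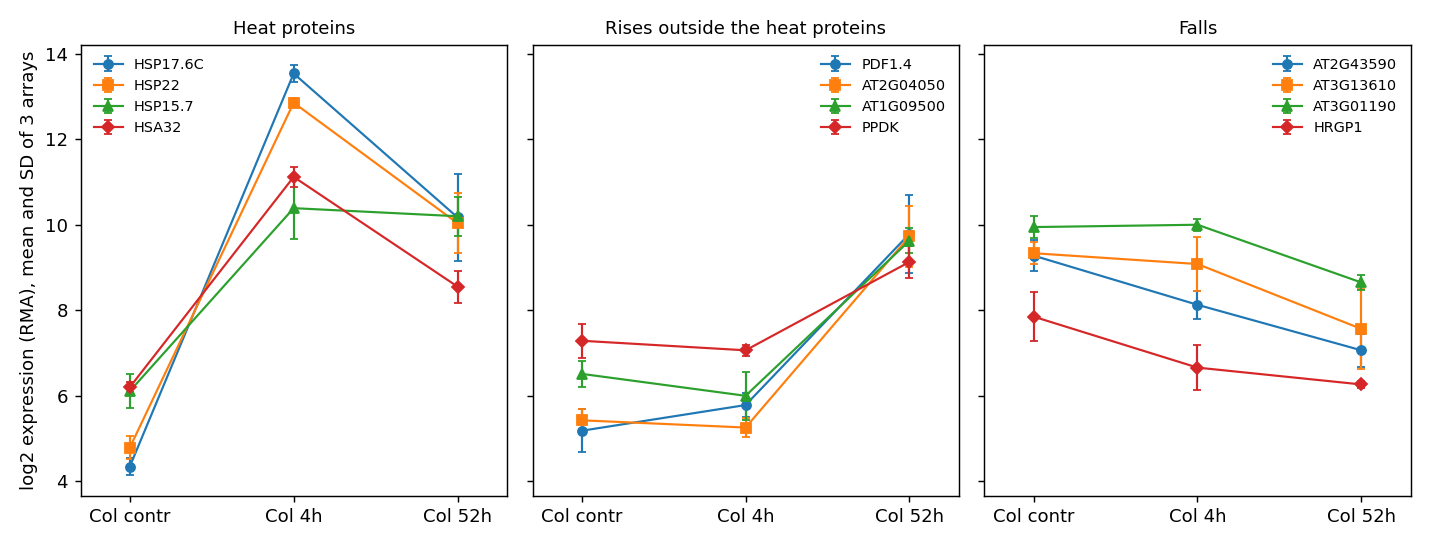
Mean log2 expression with SD (3 arrays per point) in Col contr, Col 4h and Col 52h for 4 heat protein genes, 4 other genes that rose and 4 that fell. The heat proteins other than HSP15.7 peaked at 4 h, whereas PDF1.4, AT2G04050, AT1G09500 and PPDK lay near the control level at 4 h and above it at 52 h.

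Among named genes the falls were smaller than the largest rises. Class III peroxidases are secreted enzymes that use hydrogen peroxide to cross-link or loosen the cell wall. Of 55 measured (a list added after values were seen), 20 fell, 14 of them by at least 2-fold, and 4 rose. Over all genes 6.87% fell and 6.66% rose. The list median was -0.28, and without Col 52h replicate 3 the count that fell was 17. PRX72 (AT5G66390), which has a part in lignin formation, had 7.27, 7.15 and 6.89 in Col 52h, against 8.59, 8.56 and 8.64 in Col contr, a change of -1.49 ± 0.23. AT5G17820 had 8.14, 8.55 and 7.73 in Col 52h, against 9.51, 9.62 and 9.82 in Col contr, a change of -1.51 ± 0.16. AT4G26010 had 6.92, 7.50 and 6.00 in Col 52h, against 8.28, 8.73 and 8.29 in Col contr, a change of -1.62 ± 0.26. The groups did not overlap in any of the 3, and 15.3% of all probe sets lay below the controls without overlap. AT3G01190 was lower by a change of -1.30 ± 0.17 at 52 h although it stood at 0.05 at 4 h. In the opposite direction, AT5G58390 had 5.81, 6.00 and 5.88 in Col 52h, against 4.73, 4.92 and 5.13 in Col contr, a change of 0.97 ± 0.18, while at 4 h it was at least 0.53 below the controls (a bound of -0.53).

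Extensins are rod-like structural glycoproteins of the wall. Of 12 measured in an added list, 6 fell and none rose, 4 of them by at least 2-fold, with a median of -0.59; without Col 52h replicate 3, 5 fell. AT3G28550 had 4.75, 4.52 and 5.03 in Col 52h, against 6.44, 6.50 and 7.01 in Col contr, a change of -1.89 ± 0.31. HRGP1 had 6.19, 6.24 and 6.36 in Col 52h, against 7.93, 7.24 and 8.38 in Col contr, a change of -1.59 ± 0.30, and AT1G23720 changed by -1.35 ± 0.25. The many repeats shared by extensins may let their probe sets share signal. Among 26 expansin and xyloglucan enzyme genes, which loosen and remodel the wall, 4 fell and 2 rose, beside 6.87% and 6.66% of all genes. The median of this list was -0.16. EXPA7 and EXPA18, the measured members of a list of 5 root hair markers, had 5.66, 6.27 and 5.22 and 5.04, 6.03 and 4.58 in Col 52h, against 6.70, 6.88 and 7.01 and 6.25, 6.38 and 6.34 in Col contr. Their changes were -1.15 ± 0.24 and -1.11 ± 0.24. Neither showed overlap between the groups, as was so for 15.3% of all probe sets in the downward direction. EXPB1 changed by -1.30 ± 0.24, while EXLA1 rose, with 9.44, 9.88 and 9.27 in Col 52h, against 8.11, 8.48 and 8.02 in Col contr. Of the other cell type markers with a probe set of their own, the trichome gene TRY, 1 of 4 listed, changed by -1.07 ± 0.18. The guard cell gene FMA (FAMA), 1 of 5 listed, stood at -0.06 (adjusted p = 0.797). The 1 measured meristem gene of 6 listed stood at -0.19 and was not called. The part of root hair or trichome markers in the falls of wall genes was not tested.

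Iron-deficiency genes are switched on in roots when iron is scarce. Of 10 measured in an added list, 7 fell and none rose, with a median of -0.82; without Col 52h replicate 3, 6 fell. The metal transporter MTP8 (AT3G58060) had 5.18, 5.57 and 4.93 in Col 52h, against 7.08, 7.03 and 6.54 in Col contr, a change of -1.65 ± 0.23 beside -1.06 at 4 h. The E3 ligase gene BTSL1 (AT1G74770), a regulator of iron uptake, had 5.59, 6.43 and 5.25 in Col 52h, against 7.52, 7.67 and 7.39 in Col contr, a change of -1.77 ± 0.38. The coumarin genes F6'H1 (AT3G13610) and S8H (AT3G12900), whose products help roots take up iron, changed by -1.77 ± 0.42 and -0.87 ± 0.14. The groups overlapped in none of these 4 genes. Over all probe sets, the 3 Col 52h arrays all lay below the controls for 15.3% and all above for 13.3%. Of the 3 members not called, 2 had all Col 52h arrays above all Col contr arrays: BHLH101, a regulator of the same response, with a change of 1.49 (adjusted p = 0.114) and AT1G47400 with 1.33 (adjusted p = 0.0934). Both passed with only the 6 Col 52h and Col contr arrays (adjusted p = 0.00812 and 0.00878) and with the 9 Col arrays (0.0334 and 0.0455).

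**Figure D4:**
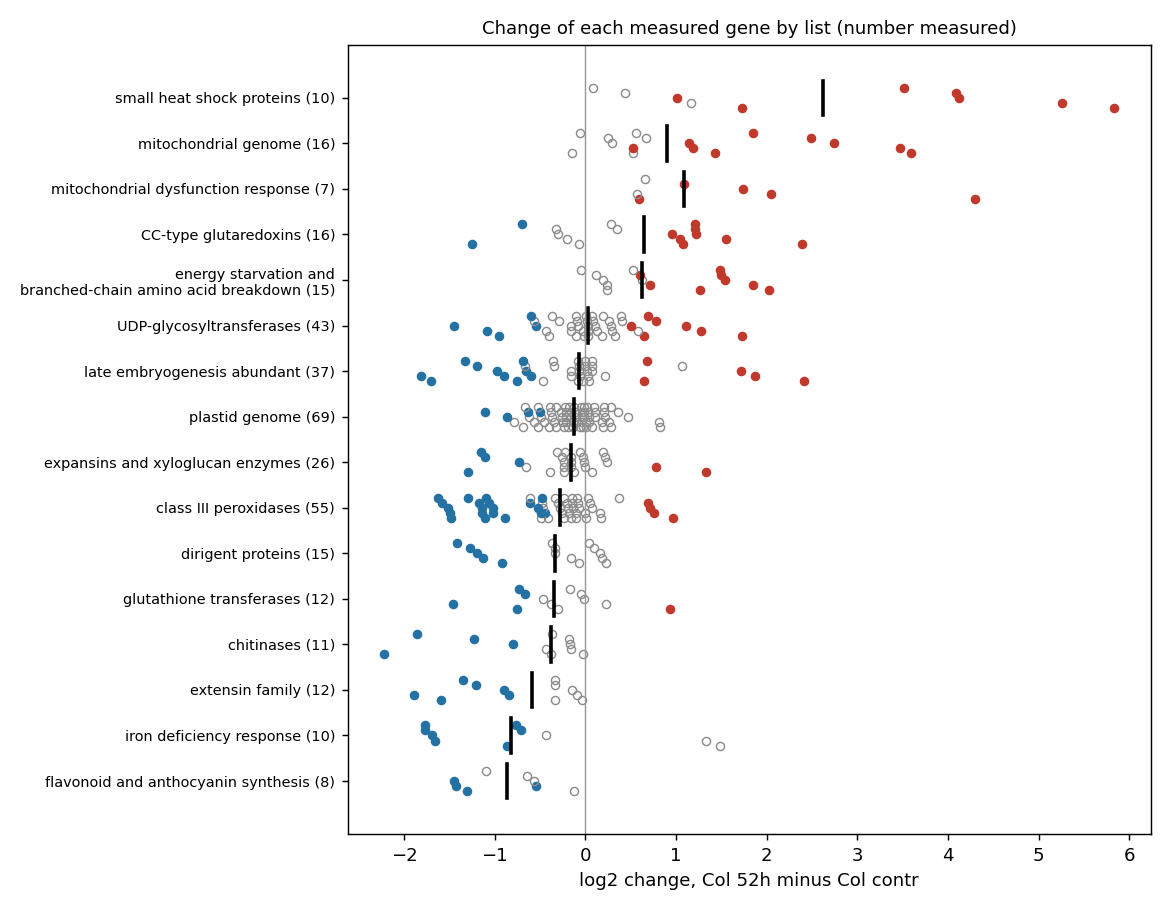
Log2 change of Col 52h minus Col contr for every measured gene of 16 lists, with the number measured in brackets; filled points passed an adjusted p of 0.05 (red higher, blue lower), open points did not, and black bars are list medians. The medians run from 2.62 for small heat shock proteins to -0.87 for flavonoid genes, and lists such as LEA and expansin genes hold filled points on both sides.

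Of 11 measured chitinases, enzymes that cut fungal walls, 4 fell and none rose, with a median of -0.38. Without Col 52h replicate 3 the count was 3. This list, like that of the dirigent proteins below, was added after values were seen. AT4G01700 had 6.32, 6.59 and 5.50 in Col 52h, against 7.26, 7.53 and 7.31 in Col contr, and AT2G43590 and AT1G02360 fell further, by 2.22 and 1.86. Dirigent proteins guide the coupling of lignan and lignin precursors; 5 of 15 measured fell and none rose, and 4 fell without Col 52h replicate 3. The dirigent gene AT2G39430 had 6.11, 6.10 and 6.02 in Col 52h, against 6.98, 7.48 and 7.34 in Col contr, a change of -1.19 ± 0.16. Carbohydrate-binding lectins were among the 15 largest falls. The jacalin lectins AT1G52060 and AT1G52070 changed by -1.75 ± 0.26 and -1.71, and the legume lectin AT3G16530 by -1.79 ± 0.30. The remaining largest falls included AT3G16670 of the Ole e 1 family, with 6.91, 6.70 and 6.28 in Col 52h, against 8.11, 8.23 and 8.62 in Col contr, the cysteine protease AT1G29090 with -1.74 and TBL26, of a family of polysaccharide acetyltransferases, with -1.76. AT5G54370 and AT3G61930, for which no role is given here, each changed by -1.70, beside -3.02 and -0.83 at 4 h.

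Flavonoid and anthocyanin genes make pigments and sunscreen compounds. Of 8 measured, 4 fell and none rose, with a median of -0.87. This count was 2 without Col 52h replicate 3, without Col contr replicate 1 or without Col contr replicate 2, and 7 without Col 52h replicate 2. AT5MAT, an acyltransferase of anthocyanins, kept its call in all of these, with 6.53, 7.02 and 5.71 in Col 52h, against 8.06, 7.88 and 7.61 in Col contr, a change of -1.43 ± 0.23 beside -3.01 at 4 h. DFR, an enzyme of anthocyanin synthesis, had 9.91, 10.85 and 7.80 in Col 52h, against 10.88, 10.82 and 10.12 in Col contr, and did not pass the test (adjusted p = 0.147). Its Col 52h arrays overlapped the controls. Of 12 glutathione transferases, which add glutathione to toxic or reactive compounds, 4 fell and 1 rose. The median was -0.34, and 10 of the 12 changes lay below 0. GSTU25 had 8.11, 8.48 and 7.98 in Col 52h, against 9.43, 9.92 and 9.59 in Col contr, a change of -1.46 ± 0.16, while GSTU16 changed by 0.93 ± 0.13. UDP-glycosyltransferases, which attach sugars to hormones and secondary compounds, were mixed, with 7 of 43 higher and 5 lower and a median of 0.03. UGT73C1 and UGT87A2 changed by 1.28 ± 0.25 and 1.11 ± 0.18, and UGT71C1 by -1.09 ± 0.17. The median changes of 7 WRKY factors and 4 pectin enzymes were -0.07 and 0.05. Of 18 cytochrome P450 genes 3 rose, none by 2-fold. These lists, and those of glutathione transferases, UDP-glycosyltransferases and expansins, were matched by keyword to gene symbols and synonyms alone. They may therefore leave out many members of these families. Over all genes, 6.66% rose and 6.87% fell.

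The bru1 52h and bru1 contr arrays share none with the comparison above and give the same contrast in another genotype. There 693 probe sets (3.05%) were called higher and 954 (4.19%) lower. Of the 366 probe sets called at least 2-fold higher in Col, 143 were so in bru1 as well, which is 74.1% of the 193 (0.849% of all) in bru1 and 39.1% of the 366 in Col. Downward 116 were shared, 53% of the 219 (0.963% of all) in bru1 and 41% of the 283 in Col. The bru1 change had the same sign for 97.3% of the 366 and 97.2% of the 283, beside 66.3% of all probe sets, and its median was 0.89 and -0.94, against 1.42 and -1.26 in Col. Since the sets were chosen for their size in Col, the smaller medians in bru1 are a description.

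The small heat shock protein list had 6 of 10 members higher in bru1 and 7 in Col, with medians of 1.83 in bru1 and 2.62 in Col, and the difference of the list was not tested. All 4 memory genes rose in both. HSP17.6C changed by at least 5.11 in bru1 and at least 5.78 in Col, HSP22 by 5.58 in bru1 and 5.25 in Col, HSP15.7 by 3.31 in bru1 and 4.09 in Col, and HSA32 by 2.02 in bru1 and 2.35 in Col. None of these differences passed the test (bru1 minus Col, adjusted p = 0.891, 0.875, 0.717 and 0.827), which does not show that they are equal. Over all genes of bru1, 2.64% rose and 3.72% fell. Of 55 peroxidases 16 fell in bru1 and 20 in Col, with medians of -0.17 in bru1 and -0.28 in Col, and of 12 extensins 6 fell in each. Of 16 glutaredoxins 7 rose in bru1 and 8 in Col, and of 16 mitochondrial genome genes 8 rose in bru1 and 9 in Col. Of 11 chitinases 5 fell in bru1 and 4 in Col, and of 15 dirigent genes 3 fell in bru1 and 5 in Col. Of 37 LEA genes 4 rose and 2 fell in bru1, while 5 rose and 10 fell in Col. Of the starvation genes 2 rose in bru1 and 8 in Col, with medians of 0.32 in bru1 and 0.63 in Col, and of the mitochondrial dysfunction genes 2 rose in bru1 and 5 in Col, with medians of 0.85 in bru1 and 1.09 in Col. Of the iron genes 3 fell in bru1 and 7 in Col, with medians of -0.57 in bru1 and -0.82 in Col, and of the flavonoid genes 0 fell in bru1 and 4 in Col, with medians of 0.01 in bru1 and -0.87 in Col. The differences of these lists between the genotypes were not tested.

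The change at 52 h differed between bru1 and Col for 27 probe sets (0.119%), 4 with a higher (0.0176%) and 23 with a lower (0.101%) change in bru1. This count was 8 without Col 52h replicate 1 and 142 without Col 52h replicate 2, so it rests on single arrays. The difference held without any 1 of the 12 arrays for 8 of the 27 probe sets, 3 of which have a gene name. AT3G05600, of the epoxide hydrolase family, changed by -1.69 in bru1 and by 1.03 in Col, a difference of -2.72 (adjusted p = 2.85e-04). The lipid-transfer-like gene AT4G22490 lay below the level read as measured in bru1 at both times, at 4.27 in bru1 52h and 4.38 in bru1 contr, whereas it changed by 2.14 in Col, with 8.63 in Col 52h and 6.49 in Col contr. The LEA gene AT4G36600 changed by 0.58 in bru1 and by -0.60 in Col, where the Col 52h level of 3.96 lay below the lowest signals read as measured, so that only a fall of at least 0.17 can be stated.

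**Figure D5:**
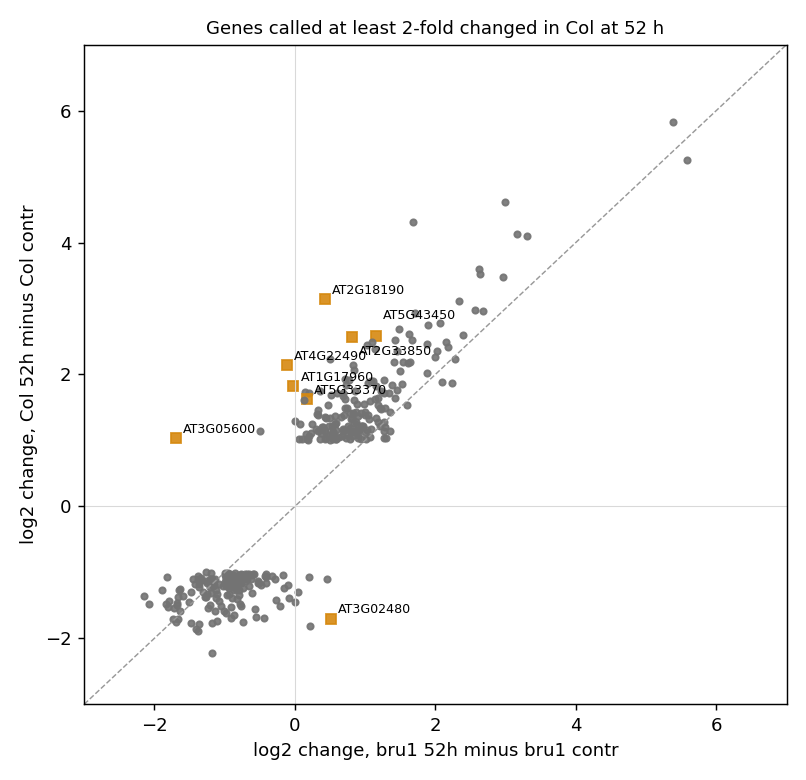
Log2 change at 52 h in bru1 (horizontal) and in Col (vertical) for the genes called at least 2-fold changed in Col; the dashed line marks equal change and orange squares mark genes whose change differed between the genotypes. Heat protein genes lie at the upper right in both, while AT3G05600 and AT2G18190 lie far from the line. The difference of AT2G18190 did not pass in 7 of 14 alternatives, while that of AT3G05600 passed in all 14.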

How the data were processed

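RNA of 18 samples was measured on Affymetrix ATH1 arrays, 3 biological replicates in each of 6 groups, per the labels; nothing states how far the replicates were grown apart, so p-values measure the spread between these samples. The deposited values are log2 expression per probe set, made by the authors with RMA per the submitters' processing notes; the sources used here give no version or settings. They ran from 2.63 to 14.6 and were used without further scaling. Since RMA equalises the distributions of the arrays, these values cannot show whether total RNA per seedling changed. A model with 1 mean per group was fitted over all 18 arrays in limma 3.58.1 (R 4.3.3, lmFit and eBayes), with Benjamini-Hochberg adjustment over 22746 probe sets (64 AFFX control probe sets left out) and a threshold of 0.05. Contrasts were 52 h against control in Col and in bru1, their difference, and Col 4h against Col contr and against Col 52h; Col 4h and Col 52h share their control arrays. The steps were tested on simulated data, in which each probe set had the same spread in every group. Of 100 changes of size 1 on the log2 scale 94 were recovered, and of 100 of size 2 all 100, with 9 false calls. The wider spread among the Col 52h arrays was not simulated. Genes were named through the probe table and RefSeq TAIR10.1 symbols: 13513 probe sets had 1 gene, 503 several and 8730 are not listed there; of 147 genes with several, the brightest was read. Where a group lay below 4.39, the highest lower quartile of an array, the change is given as a bound against that level. Named are the 15 largest rises and falls without overlap of arrays, the memory and small heat shock protein lists, and up to 4 called members of other lists; members of the 14 added lists, genes whose change differs between genotypes, and genes not called that are given for contrast were named after their values were seen. The members, lists and rules were chosen with earlier results of these data known. Replicate numbers were not taken as pairs. The deviations of same-numbered arrays correlated by 0.0357, 0.137 and 0.158, although all 3 Col 52h arrays correlated best with the control array of their own number. Counts with the replicate number as a block are therefore given as an alternative. No sequences were given, so the promoter search that had been planned was not run. Alternatives tried are in the closing section.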

Additional observations from a re-analysis of the deposited data

Results flagged for a closer look

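For 13 named genes the change at 52 h passed the test in Col and also differed between the genotypes (bru1 minus Col, limma adjusted p under 0.05). Of these, 3 kept the difference under all 14 alternatives, which leave out each of 12 arrays in turn, add the replicate number as a block or change the variance model: AT3G05600 with -2.72, AT4G22490 with -2.25 and AT4G36600 with 1.18 (highest adjusted p = 0.00203, 0.00203 and 0.00587). AT3G02480 had a difference of 2.21 that did not pass without Col 52h replicate 1 (adjusted p = 0.0565).

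The others did not pass in 5 to 10 of the 14 alternatives. AT1G17960, a threonyl-tRNA synthetase, had -1.84 (5 alternatives), the thionin THI2.2 had -2.03 (6), AT1G66100 had -1.76 (6), AT2G18190 had -2.72 (7), the GDSL lipase AT5G33370 had -1.45 (8), AT3G48710 had -0.99 (8), AT1G12010 had -1.35 (8), AT2G33850 had -1.76 (9) and the oxygenase AT5G43450 had -1.44 (10). Their highest adjusted p-values ran from 0.0694 for AT1G17960 to 0.128 for AT2G33850. AT2G33850, AT4G22490 and AT5G33370 had lower levels in bru1 contr than in Col contr: 3.63, 4.38 and 4.10 in bru1 contr, against 6.02, 6.49 and 4.92 in Col contr. In bru1, AT4G22490 and AT5G33370 lay below the level of 4.39 read as measured at both times, so their differences rest on the change in Col, and AT2G33850 lay below it in bru1 contr.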

How the results depend on the processing

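Over the alternatives, 148 genes gave 1922 gene and alternative pairs, of which 1780 kept direction and call, 134 lost the call, 7 gained it and 1 reversed. These 148 do not take in every gene named above. BHLH101, AT1G47400 and AT3G09440 each gained the call with only the 6 Col 52h and Col contr arrays. The reversed gene was HSP15.4 (AT4G21870), never called, which had -0.0563 without Col 52h replicate 2, in a range up to 0.17 without replicate 3. Without 1 array, 29 of the 148 lost their call, and the 148 include genes that had none to lose, such as HSP15.4 and HSP23.5. With only the 6 Col 52h and Col contr arrays, 1092 probe sets were higher and 1109 lower, against 1577 and 1783 in the main fit. The flavonoid count was then 1 and the LEA count 6. With the 9 Col arrays the flavonoid count was 2. Leaving out 1 array gave 1100 to 1831 probe sets higher, 1247 to 1985 lower, 317 to 462 at least 2-fold higher and 203 to 418 at least 2-fold lower. It gave 843 (without bru1 52h replicate 1) to 1833 in bru1, with 960 without bru1 contr replicate 2, and 8 to 142 for the difference between genotypes, with 10 and 13 without Col contr replicates 1 and 2 and 12, 13 and 12 without bru1 contr replicates 1, 2 and 3. Col 4h against Col contr gave 7060 to 7363 and Col 52h against Col 4h 5893 to 7252. List counts ran from 4 to 4 (memory), 7 to 8 (small heat shock proteins and, separately, glutaredoxins), 8 to 11 (mitochondrial genome), 4 to 6 (mitochondrial dysfunction and, separately, dirigent), 7 to 10 (starvation), 17 to 23 (peroxidases), 5 to 6 (extensins), 6 to 8 (iron), 3 to 5 (chitinases), 2 to 7 (flavonoid) and 5 to 11 (LEA lower). With the replicate block 1451 were higher and 1626 lower, 363 and 278 by at least 2-fold, 1510 in bru1 and 21 for the difference; 3 of 3 Col 52h arrays correlated best with their own number. Without dim probe sets, medians moved to -1.21 for extensins, -0.48 for peroxidases and 0.34 for glutaredoxins. Except where an alternative uses fewer arrays, the cause was not tested. The promoter search and its alternative were not run, since no promoter sequences were given; 15 of 39 lists had no measured member. Signals near 4.39 limit falls of dim genes, and 3 arrays per group limit precision.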
